A study of Homo sapiens with 4 samples.

Results

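Within-bin counts were followed along chromosome 20, that is, the contacts whose both ends fell into a single 5 kb bin. The rule for the bins uses positions and not counts, although it was set with earlier results of these data known. Bins starting from 26 to 32.095 Mb, a stretch around the centromere, and the 3 bins that held the baits, starting at 55.2, 55.38 and 55.42 Mb, were left out. This kept 11371 of the 12594 bins up to the last bin with a within-bin count, and a bin missing from a file counted as 0. The libraries came from surface ectoderm cells made from H9, an established human embryonic stem cell line. One group was wild-type and the other p63-/-, here called p63-null, with 2 libraries each. All 4 libraries shared 7 days of differentiation with 1 uM retinoic acid (RA) and 5 ng/ml BMP4, fixation in 1% formaldehyde, digestion with DpnII and amplification with baits at the TFAP2C locus. The labels speak of duplicates without naming cultures. The p-values of the genotype and permutation tests below therefore rest on the spread between libraries that could be technical repeats. Those of the chi-square and Fisher tests rest on counting error between single libraries. The origin of the p63-null line (1 clone or several) is not given in the sources used here.

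p63 is a transcription factor of stratified epithelia, and TFAP2C encodes an AP-2 transcription factor that acts in early ectoderm. UMI-4C is built to read the contacts of a bait, yet proximity ligation also joins neighbouring DpnII fragments elsewhere, and such short-range pairs land within a bin. DpnII cuts at GATC, a site that holds as many G and C as A and T bases. Gene-dense chromosome ends of the human genome are generally GC-rich, and gene-poor stretches generally are not.

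Gene content was read from RefSeq gene order (GRCh38.p14), because no annotation of hg19 was used here, and the genes that bound each region were placed from general knowledge. From TSHZ2 to DOK5, roughly the gene-poor region of 51 to 54 Mb, the table lists 6 coding genes, among them CYP24A1, the enzyme that inactivates vitamin D. From TAF4, a subunit of TFIID, to PCMTD2, roughly the gene-dense region of 60 to 63 Mb, it lists 64, among them LAMA5, a laminin chain of basement membranes. Promoters were matched for 4 of the 6 and 42 of the 64 genes, and for 384 of the 537 coding genes of the chromosome. The median GC content of the 250 bases before the gene start was 71.8% in the gene-poor and 74.8% in the gene-dense set, against 64.0% over the chromosome. The DpnII site GATC, which is its own reverse complement, occurred in 1 of the 4 and in 10 of the 42 (23.8%), against 139 of the 384 (36.2%). Promoters are a small part of a 5 kb bin, so this describes promoters and not the bins, and whether GC content or site density has a part in the counts below was not tested.

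An example with a GATC from each set is shown to let the base composition be seen, the capitals marking the DpnII site. DOK5, an adaptor protein of receptor tyrosine kinases, is the gene of the gene-poor set with a site, and LSM14B, an RNA-binding protein, is the first in order of the gene-dense set with one. Both are the 250 bases before the gene start on the plus strand (RefSeq, GRCh38.p14).
DOK5: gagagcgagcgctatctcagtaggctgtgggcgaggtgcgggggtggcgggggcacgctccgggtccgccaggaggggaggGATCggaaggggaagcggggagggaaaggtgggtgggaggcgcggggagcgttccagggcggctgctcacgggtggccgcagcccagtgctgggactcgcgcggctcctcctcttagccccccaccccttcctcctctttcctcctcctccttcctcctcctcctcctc
LSM14B: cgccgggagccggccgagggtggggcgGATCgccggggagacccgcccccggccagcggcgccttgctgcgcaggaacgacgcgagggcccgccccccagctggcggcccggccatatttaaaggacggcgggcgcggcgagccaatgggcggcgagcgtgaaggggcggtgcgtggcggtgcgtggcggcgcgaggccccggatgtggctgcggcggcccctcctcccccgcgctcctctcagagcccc
The GC content was 71.2% in the DOK5 and 79.2% in the LSM14B stretch.

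The within-bin counts of all these bins summed to 19377 for wild-type replicate 1, 9926 for wild-type replicate 2, 20101 for p63-null replicate 1 and 29282 for p63-null replicate 2. A bin held a mean of 1.7, 0.873, 1.77 and 2.58 counts in this order of libraries. The median was 1, 1, 1 and 2 counts, and the 99th percentile was 7, 4, 7 and 9 counts. Depth thus differed 3-fold between the p63-null library with most counts and the wild-type library with fewest, and each mean below is also given relative to the mean of its library (1 is the library's average bin).

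Empty bins were common and followed depth. They made up 25.6% (Wilson 95% interval 24.8 to 26.4) and 46.5% (45.6 to 47.4) of the bins in wild-type replicates 1 and 2. In p63-null replicates 1 and 2 they made up 23.5% (22.7 to 24.3) and 13.8% (13.2 to 14.5). These intervals, like those of the ratios below, cover counting error only. Counts spread at random at the same means would leave 18.2, 41.8, 17.1 and 7.61% empty, below the measured share in each of the 4 libraries. The variance of the counts was 1.54, 1.30, 1.46 and 1.7 times the mean without the 4 bins of 40 or more described below. Expected at the total of the shallowest library, 9926 counts, the empty shares came to 46.4, 46.5, 45.8 and 45.8%, so most of the difference between libraries went with depth.

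Only 265 bins (2.33%) were empty in all 4 libraries, and 3792 (33.3%) held a count in each. Of these 265 bins, 63 lay in 6 runs of at least 5 consecutive bins. The runs were 25,760,001 to 25,825,000 (13 bins), 1 to 60,000 (12 bins), 34,895,001 to 34,950,000 (11 bins), 61,090,001 to 61,140,000 (10 bins), 61,215,001 to 61,265,000 (10 bins) and 1,560,001 to 1,595,000 (7 bins) of chromosome 20 (hg19). Whether these runs are gaps of the assembly was not tested, since no genome of that build was used here. Another 182 of the empty bins stood alone between bins with counts.

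Over most of the chromosome the profile in 1 Mb blocks was flat. There were 57 blocks, each of 180 to 200 bins. Without the 4 bins of 40 or more, 44 of the 57 blocks lay within 10% of the library mean, taken as the mean of the 4 relative values. The 54 blocks below 60 Mb spanned 0.843 to 1.14 times the library mean, and the share of empty bins, averaged over the libraries, spanned 21.7 to 35.6% with a median of 26.1%. The 3 blocks of 60 to 63 Mb lay apart from all of these.

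**Figure D1:**
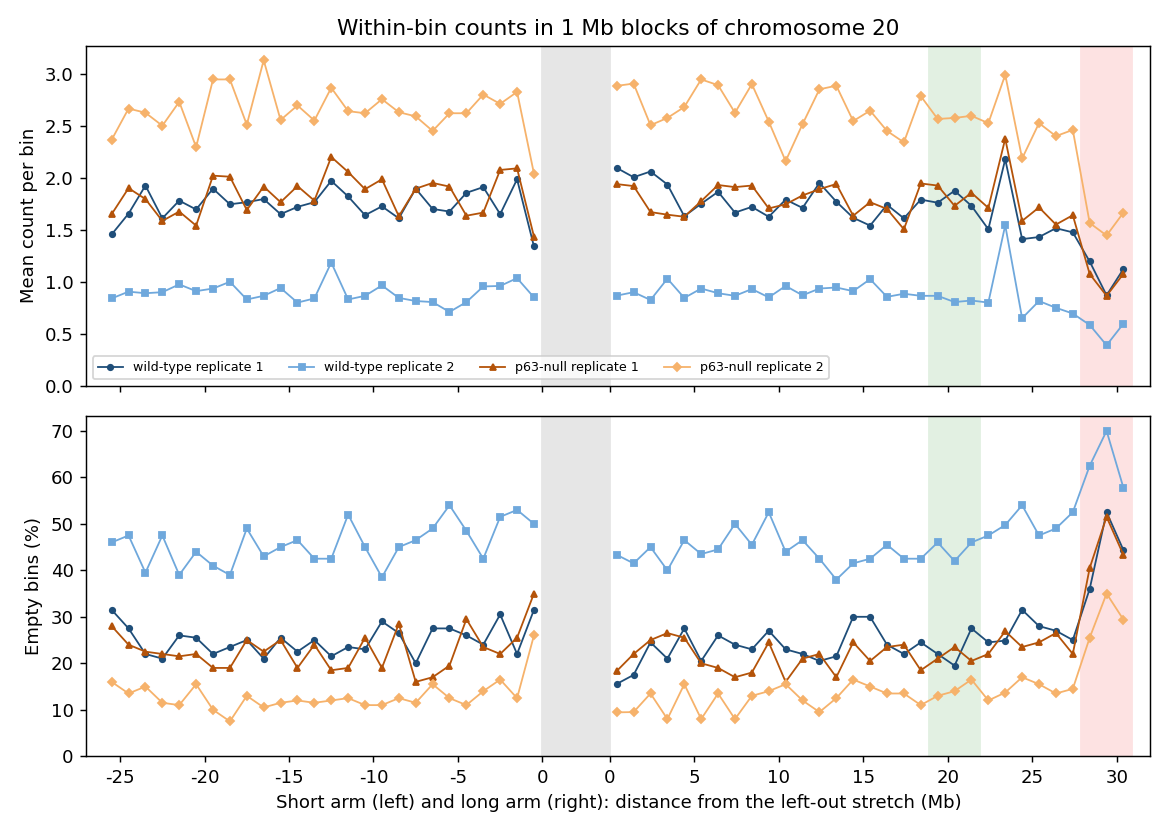
Mean within-bin count per 5 kb bin (upper panel) and percentage of empty bins (lower panel) in 1 Mb blocks, one line per library, against the distance in Mb from the left-out stretch (grey), with the short arm on the left and the long arm on the right. Green marks the gene-poor and pink the gene-dense region, where the mean fell and the empty share rose in each of the 4 libraries.

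The lowest block was 61 to 62 Mb. Its mean count per bin was 0.870 and 0.390 for wild-type and 0.865 and 1.45 for p63-null, replicate 1 first, which is 0.502 ± 0.048 (SD, n = 4) times the library mean. In all 4 libraries it was the lowest of the 57 blocks and the one with most empty bins, at 52.5, 70.0, 51.5 and 35.0%. The blocks 60 to 61 Mb and 62 to 63 Mb followed at 0.647 ± 0.047 and 0.650 ± 0.031 (SD, n = 4), values that did not differ beyond their spread. In each library only block 61 to 62 Mb lay below these. The next lowest blocks were 56 to 57 Mb, at 0.829 ± 0.063, and 25 to 26 Mb, at 0.841 ± 0.089 (SD, n = 4). Block 25 to 26 Mb borders the left-out stretch and holds the run of 13 empty bins.

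The highest blocks owed their place to single bins. Block 55 to 56 Mb, which surrounds the baits, stood at 1.39 ± 0.26 times the library mean (SD, n = 4), block 13 to 14 Mb at 1.22 ± 0.11 and block 24 to 25 Mb at 1.16 ± 0.041. Without the bins of 40 or more these fell to 0.988 ± 0.035, 1.1 ± 0.047 and 0.937 ± 0.072. The next highest, 6 to 7 Mb at 1.12 ± 0.034 and 7 to 8 Mb at 1.11 ± 0.059, hold no such bin, and they ranked above the rest once those bins were left out. Bins near the baits were not raised over a wide range. At 5 to 25 kb from a bait 27 bins had 1.14 ± 0.085 times the library mean, and at 25 to 100 kb 55 bins had 0.925 ± 0.066 (SD, n = 4).

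Counts were lower in the gene-dense region than in the gene-poor region in all 4 libraries. The gene-dense region, 60 to 63 Mb, had 594 bins and the gene-poor region, 51 to 54 Mb, had 600. The mean count per bin of wild-type replicate 1 was 1.06 in the gene-dense and 1.79 in the gene-poor region, and that of wild-type replicate 2 was 0.524 and 0.830. For p63-null replicate 1 it was 1.01 and 1.84, and for p63-null replicate 2 it was 1.56 and 2.58. Within each library the gene-dense value was thus the lower one, and the ratios fell in a narrow range.

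The ratio of gene-dense to gene-poor was 0.594 (95% interval 0.538 to 0.656) and 0.631 (0.546 to 0.728) in wild-type replicates 1 and 2. It was 0.547 (0.495 to 0.605) and 0.604 (0.556 to 0.656) in p63-null replicates 1 and 2. The mean was 0.594 ± 0.035 (SD, n = 4), or -0.75 ± 0.086 on the log2 scale. The two-sided exact sign-flip permutation test over the 4 libraries gave p = 0.13, the smallest that 4 libraries allow. Without the 265 bins empty in all 4 libraries the mean log2 ratio was -0.63, and without the 6 long empty runs alone it was -0.70.

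Empty bins mirrored the means. They made up 44.3, 63.5, 45.1 and 30% of the gene-dense bins and 23.0, 44.7, 21.7 and 14.5% of the gene-poor bins, in the order wild-type replicates 1 and 2 and p63-null replicates 1 and 2. The difference was 19.7 ± 3.43 percentage points (SD, n = 4, exact sign-flip p = 0.13), and 18.6 ± 2.23 at equal depth. Bins empty in all 4 libraries made up 9.60% of the gene-dense and 1.5% of the gene-poor bins. Bins with 5 or more counts were scarcer too, at 2.69, 0.337, 2.19 and 5.22% of the gene-dense bins and 6.00, 0.333, 5.67 and 15.7% of the gene-poor bins, although wild-type replicate 2 had too few such bins in either region to show a difference.

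The gene-poor region itself was ordinary. Its mean was 1.01 ± 0.045 times the library mean (SD, n = 4), and its 3 blocks, at 1.03, 1.00 and 1.00, lay in the middle of the 57. The contrast therefore lay in the gene-dense end, which also fell short of the rest of the long arm, at 0.589 ± 0.020 times its mean (SD, n = 4).

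**Figure D2:**
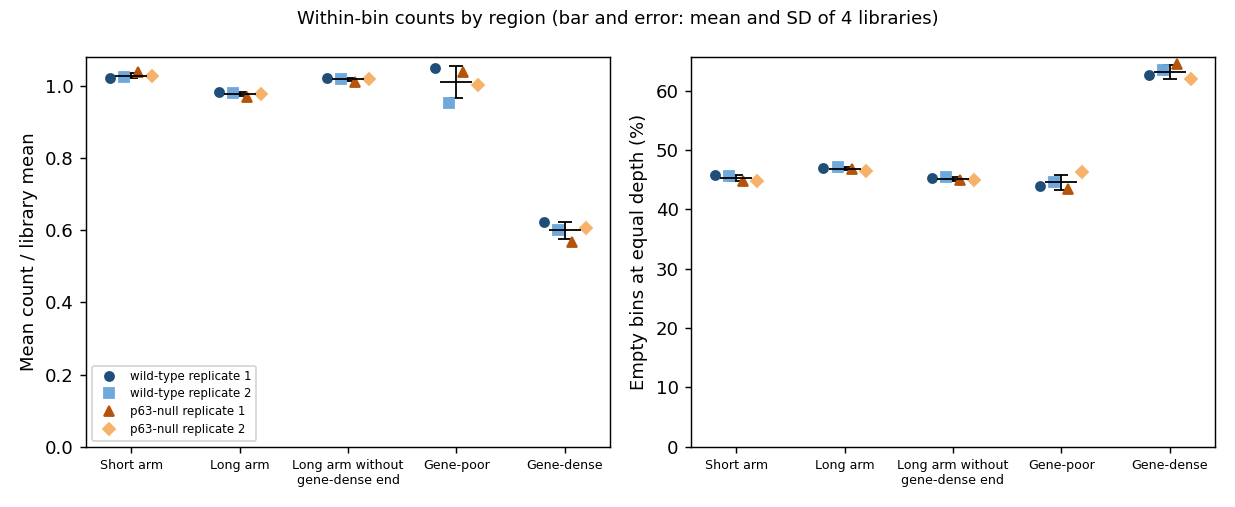
Mean within-bin count relative to the library mean (left) and percentage of empty bins expected at the depth of the shallowest library (right) in 5 regions. Points are libraries, and bars with error are the mean and SD of the 4. The gene-dense region lies near 0.6 and above 61% empty, apart from the other regions.

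In windows of 250 kb the decline was not a single step. The 4 windows from 60 to 61 Mb stood at 0.688 ± 0.041, 0.656 ± 0.12, 0.741 ± 0.15 and 0.548 ± 0.13 times the library mean (SD, n = 4). The window 61,000,001 to 61,250,000 was the lowest of the end, at 0.315 ± 0.078, with 19, 13, 27 and 53 counts in its 50 bins, and it holds most of the 20 bins of the 2 empty runs there. The next 3 windows, up to 62 Mb, ranged from 0.549 to 0.607, and the window 62,000,001 to 62,250,000 was at 0.443 ± 0.060. The last 3 windows rose again to between 0.681 and 0.779. Below 60 Mb, the windows from 56 to 60 Mb varied between 0.713 and 1.13.

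Over the whole chromosome 14 of 228 such windows lay below 0.75 times the library mean, a bound chosen after the profile was seen, and 11 of these 14 were among the 12 windows at or above 60 Mb. The other 3 started at 25.75, 34.75 and 56.25 Mb, with relative means of 0.478, 0.713 and 0.713. Those at 25.75 and 34.75 Mb each hold one of the long empty runs.

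**Figure D3:**
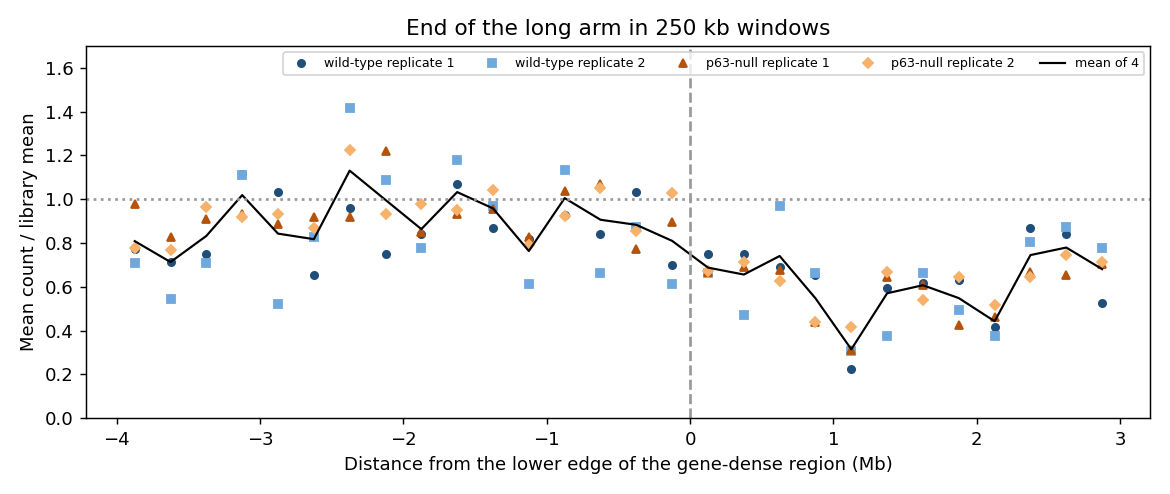
Mean within-bin count relative to the library mean in windows of 250 kb at the end of the long arm, against the distance in Mb from the lower edge of the gene-dense region (dashed). Points are libraries and the line is their mean, whose lowest point, 0.315, is the first window beyond 1 Mb past the edge.

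Contacts between different bins, a readout the choice of bins did not use, were low in the gene-dense region as well. Leaving out pairs with a bait bin, a gene-dense bin took part in 0.458, 0.210, 0.453 and 0.857 contacts with other bins and a gene-poor bin in 1.2, 0.540, 1.07 and 2.09, in the same order of libraries. The ratio was 0.401 ± 0.019 (SD, n = 4), below the within-bin ratio of 0.594 ± 0.035. For contacts with the directly neighbouring bin it was 0.493 ± 0.051 (SD, n = 4). Both readouts come from the same libraries and the same fragments, so they are not independent.

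The arms differed little. The short arm had 5200 bins and the long arm 6171. The mean count per bin was 1.74 on the short and 1.67 on the long arm in wild-type replicate 1, and 0.894 and 0.855 in wild-type replicate 2. It was 1.83 and 1.71 in p63-null replicate 1, and 2.64 and 2.52 in p63-null replicate 2. The long arm was lower in 4 of 4 libraries, at 0.952 ± 0.012 times the short arm (SD, n = 4; exact sign-flip permutation p = 0.13, the smallest possible).

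That difference rested on the gene-dense end. With the long arm taken only up to 60 Mb, a comparison added after the profile was seen, the ratio was 1.00 (95% interval 0.971 to 1.03) and 0.995 (0.956 to 1.04) in wild-type replicates 1 and 2. In p63-null replicates 1 and 2 it was 0.975 (0.948 to 1.00) and 0.993 (0.970 to 1.02). Their mean was 0.991 ± 0.011 (SD, n = 4). The share of empty bins was higher on the whole long arm than on the short arm by 1.37 ± 0.25 percentage points (SD, n = 4). With the long arm up to 60 Mb the difference turned to -0.52 ± 0.44 points, negative in each of the 4 libraries (exact sign-flip permutation p = 0.13 for both). The long empty runs are part of that value. Those of 13, 12 and 7 bins lie on the short arm, and that of 11 bins on the long arm below 60 Mb. The difference was -0.92 and -0.24 points in wild-type replicates 1 and 2, and -0.86 and -0.051 points in p63-null replicates 1 and 2. In p63-null replicate 2 it was so small that its negative sign rested on these runs. The sign is therefore not shared by all libraries once the runs are set aside.

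A few bins held far more counts than the rest. Taking the library with most counts at each bin, 8594 bins (75.6%) held 1 to 4 counts, 2414 held 5 to 9, 90 held 10 to 19, 3 held 20 to 29 and 1 held 30. The remaining 4 reached 40 or more in at least 1 library, the bound that defines the outlier bins. The choice used their counts, so the values of these bins are a description with no test.

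The bin at 55,960,001 to 55,965,000, 540 kb from the nearest bait, had 111 and 133 counts in the wild-type and 126 and 112 in the p63-null libraries, replicate 1 before replicate 2. The bin at 24,460,001 to 24,465,000 had 57, 65, 96 and 78. The bin at 23,960,001 to 23,965,000, 500 kb below it, had 35, 50, 78 and 60. Just inside the bound was the bin at 13,300,001 to 13,305,000 with 27, 48, 46 and 49. Just outside were the bins at 55,655,001 to 55,660,000, with 13, 24, 30 and 11, and at 50,615,001 to 50,620,000, with 23, 5, 9 and 22. Each of the 4 bins was high in both genotypes.

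The outlier counts did not follow library depth. Over the other bins the deepest library had 3.01 times the counts of the shallowest (28983 against 9630). The 4 outlier bins together had 230 and 296 counts in the wild-type and 346 and 299 in the p63-null libraries, 1.5 times between highest and lowest. The bait bins, which are not among the bins described, had 1646, 1454, 1683 and 1370, 1.23 times between highest and lowest. The 4 bins made up 2.98% of the counts in the shallowest library, wild-type replicate 2, and 1.02% in the deepest, p63-null replicate 2. In wild-type replicate 1 and p63-null replicate 1 they made up 1.19 and 1.72%.

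**Figure D4:**
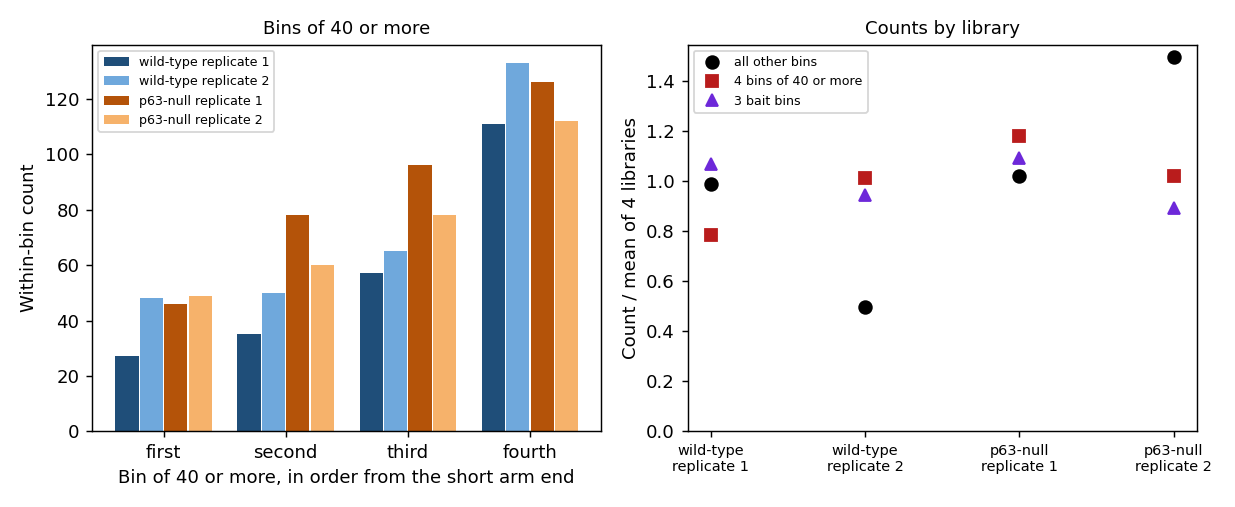
Left, within-bin counts of the 4 bins of 40 or more in each library, in order from the short arm end. Right, counts divided by the mean of the 4 libraries for these bins, for the 3 bait bins and for all other bins. The other bins rise 3.01-fold from wild-type replicate 2 to p63-null replicate 2, and the outlier and bait bins do not.

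The high counts stopped at the bin edges. The 2 bins on either side of each outlier bin held at most 3 counts in any library around 55.96 Mb, and at most 5, 7 and 5 around 13.30, 23.96 and 24.46 Mb. All outlier bins but that at 23.96 Mb also had many contacts with other bins, leaving out the baits. The bins at 13.30, 24.46 and 55.96 Mb had 77, 88 and 55 over the 4 libraries, where the median bin had 4. These were spread over 59, 70 and 46 different partner bins, with no pair counted more than 4 times in a library. Of them 31.2, 15.9 and 40% lay over 1 Mb away, against 28.4% of all such pairs of the chromosome. The bin at 23.96 Mb had 9 contacts with other bins, 0 of them over 1 Mb away.

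No direct contact of the outlier bins with each other was counted. With the baits there were 2 contacts, both between the bin at 55.96 Mb and the bait bin at 55.42 Mb, in the 4 libraries together. Each 0 allows up to 3 contacts by counting error.

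Apart from these bins, single bins were only loosely shared between libraries. Across 11367 bins without the outliers, Pearson's r between libraries was 0.249 and 0.344 within wild-type and within p63-null, and 0.244 to 0.352 between genotypes. With the 4 outlier bins it was 0.564 to 0.678, so these few bins carried much of it. Across the 57 blocks without outlier bins r was 0.677 within wild-type, 0.859 within p63-null and 0.651 to 0.778 between genotypes. Without the 3 blocks of 60 to 63 Mb it dropped to 0.372, 0.670 and 0.249 to 0.558. Bins and blocks share the sequence under them in every library, and r also depends on depth, with the lowest values without outlier bins in pairs that include the shallow wild-type replicate 2. A bin resembled its neighbour hardly at all, with r of 0.028 to 0.039 within a library. Within-bin and between-bin counts of a bin were weakly related, with r of 0.127 to 0.225.

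Replicates were compared by chi-square tests, which compare libraries and not conditions. Divided by its degrees of freedom, chi-square over the 57 blocks without outlier bins was 0.959 for the p63-null pair (p = 0.563) and 1.23 for the wild-type pair (p = 0.117). Across genotypes the same 57 blocks gave 1.46 (chi-square p = 0.0141), 1.44 (p = 0.0173) and 1.40 (p = 0.0261) for the pairs that include a first replicate. The pair of second replicates gave 1.2 over the 57 blocks (chi-square p = 0.0989). Over the blocks the largest values were thus those between genotypes, before any adjustment for 6 pairs, which was not so over single bins. Over single 5 kb bins with enough counts the p63-null pair gave 1.01 (644 bins, chi-square p = 0.406) and the wild-type pair 1.44 (81 bins, chi-square p = 0.00572), where the wild-type replicates differed beyond sampling noise. The pairs between genotypes gave 1.08, 1.07, 1.05 and 1.30 over such bins, all below the wild-type pair. The bait bins, chosen by position, had 1.23 times as many counts in p63-null replicate 1 as in replicate 2, where all the other bins had 0.686 times as many (Fisher's exact test, p = 1.54e-54). For wild-type the same values were 1.13 and 1.95 (Fisher's exact test, p = 9.96e-46). Over the bait bins, which are not among the bins described, the replicates of both genotypes thus differed beyond sampling noise. Replicates were kept as separate libraries.

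Loss of p63 was then compared with wild-type across the 57 blocks, to ask whether any stretch gained or lost within-bin counts. None of the 57 blocks passed edgeR's quasi-likelihood test at a Benjamini-Hochberg adjusted p under 0.05 (0% called), 5 had an unadjusted p under 0.05, and DESeq2 also called 0, with 1 at an unadjusted p under 0.05. The log2 fold changes, p63-null over wild-type, ran from -0.25 to 0.18 with a median of 0.024, and 31 blocks were higher in p63-null. The shares of the genotypes did not overlap in 22 blocks (38.6%). With 2 against 2 libraries the order of the labels alone gives no overlap in a share of about 0.333, so this is near that share. A p that misses the threshold does not show that the genotypes were alike.

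The 5 blocks with the smallest p were 42 to 43, 35 to 36, 34 to 35, 5 to 6 and 20 to 21 Mb. Block 42 to 43 Mb held 18.9 ± 0.61 per mille of the counts in wild-type and 16.1 ± 1.85 in p63-null (SD, n = 2 each), and edgeR gave a log2 fold change of -0.24 (SE 0.088, adjusted p 0.217), which was -0.12 without p63-null replicate 2. Block 35 to 36 Mb held 20.4 ± 0.55 and 17.0 ± 0.86 per mille (n = 2 each), with -0.25 (SE 0.091, edgeR adjusted p 0.217). Wild-type held 387 and 206 counts there and p63-null 329 and 515, and the block is among the 22 where the shares of the genotypes did not overlap. Blocks 34 to 35, 5 to 6 and 20 to 21 Mb had log2 fold changes of -0.21, -0.20 and 0.18 and edgeR adjusted p of 0.337, 0.393 and 0.519. That of 34 to 35 Mb, -0.21, went to 0.024 on leaving out wild-type replicate 1 and to -0.33 on leaving out replicate 2. The same steps took that of 20 to 21 Mb to 0.36 and 0.088. The 3 blocks of the gene-dense end had -0.18, 0.12 and -0.082, from 60 to 63 Mb in order, with edgeR adjusted p of 0.519, 0.798 and 0.798.

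**Figure D5:**
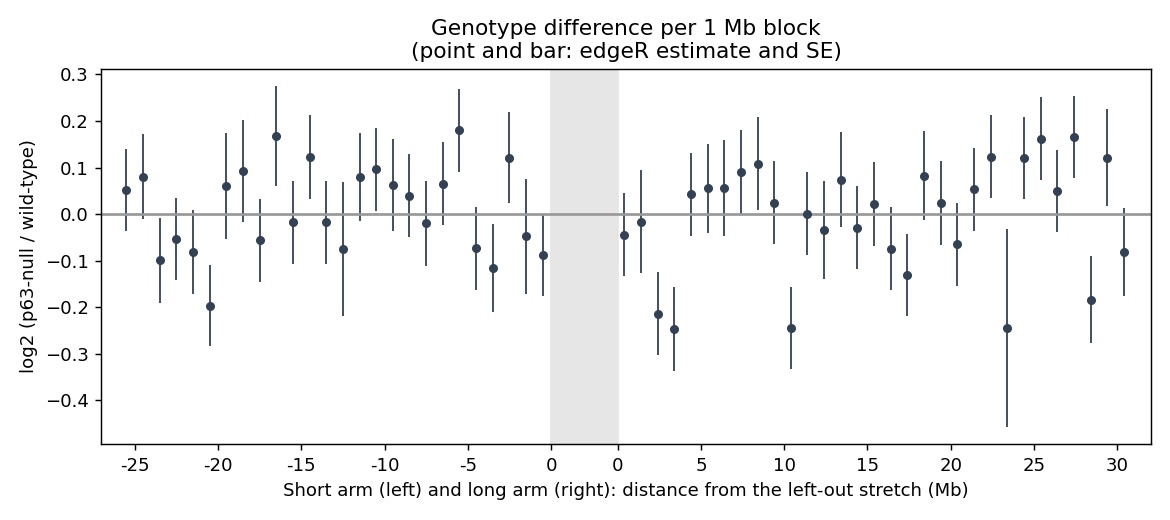
log2 fold change of within-bin counts, p63-null over wild-type, in each 1 Mb block (point and bar, edgeR estimate and its SE) against the distance in Mb from the left-out stretch (grey). The estimates lie between -0.25 and 0.18, and 0 blocks passed the test.

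Single bins gave the same count of calls. Of 2551 bins with at least 10 counts over the 4 libraries 0 passed (0% called), 82 had an unadjusted p under 0.05 in edgeR, and DESeq2 called 0 with 10 at an unadjusted p under 0.05. The shares of the genotypes did not overlap in 880 bins (34.5%), again near the share of about 0.333 from label order alone. Lowest in p was the bin from 1,075,001 to 1,080,000, which held 0 and 0 wild-type and 7 and 9 p63-null counts, at least 3.16-fold higher in p63-null against a floor of 3 counts over the wild-type group. Those at 46,910,001 and 55,300,001 were also empty in both wild-type libraries and held 5 and 8 p63-null counts (at least 2.57-fold higher), and that at 33,640,001 was likewise empty in wild-type and held 6 and 6 (at least 2.37-fold higher). In the other direction the bin at 35,155,001 held 7 and 2 wild-type counts against 0 and 1 for p63-null, which had 0.066 times the pooled wild-type share. These 5 shared an edgeR adjusted p of 0.945. At these counts 0 calls do not show that single bins were alike. The p63-null libraries were deeper in sum, and these 5 bins were picked out of 2551 by their p, so their fold values are selected extremes. The 4 bins with no wild-type count passed the filter of 10 counts through the p63-null libraries alone, so they could only be higher there.

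For the outlier bins, which their own counts chose, the genotype values are a description. At 55.96 Mb wild-type held 9.56 ± 5.42 and p63-null 5.05 ± 1.73 per mille of the counts (SD, n = 2 each). The log2 fold change there was -0.92 (SE 1.32), which became -1.41 on leaving out wild-type replicate 1 and -0.19 on leaving out replicate 2. At 13.30, 24.46 and 23.96 Mb it was -0.62, -0.34 and -0.19, each smaller than its SE (0.919, 1.08 and 0.994). The wild-type spread came from wild-type replicate 2 (13.4 per mille against 5.73 in replicate 1), which is the shallowest library. Shares and fold changes divide by library size, which the counts of the outlier bins did not follow. At 55.96 Mb these counts were close to each other, at 111, 133, 126 and 112 (wild-type libraries first). The fold changes of the outlier bins thus cannot separate genotype from the lower depth of the wild-type libraries.

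The contrasts along the chromosome were compared between the genotypes as well, in a design of 2 against 2 that cannot reach p under 0.05. The log2 ratio of gene-dense to gene-poor was -0.71 ± 0.061 in wild-type and -0.80 ± 0.10 in p63-null (SD, n = 2 each), a difference of -0.091 (two-sided exact permutation p = 0.667), and the genotypes overlapped. That difference went to -0.019 or -0.16 on leaving out p63-null replicate 1 or 2, and to -0.047 on leaving out wild-type replicate 2. The log2 ratio of long to short arm was -0.060 ± 0.0071 and -0.083 ± 0.021 (SD, n = 2 each), a difference of -0.023 (exact permutation p = 0.333, the smallest that 2 against 2 allow). Both p63-null libraries had a lower ratio than both wild-type libraries, and the difference went to -0.0078 or -0.038 on leaving out p63-null replicate 1 or 2. At equal depth the empty share was 46.4% ± 0.058 in wild-type and 45.8% ± 0.047 in p63-null (SD, n = 2 each). Both p63-null libraries lay below both wild-type libraries, by 0.64 percentage points in the mean (exact permutation p = 0.333). The totals behind the equal depth include the 4 outlier bins. These made up 1.19 and 2.98% of the counts in wild-type replicates 1 and 2 and 1.72 and 1.02% in p63-null replicates 1 and 2. The difference was not computed without them.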

How the data were processed

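UMI-4C was measured in 4 libraries. The values are counts of contacts between 5 kb bins, deposited by the authors without normalization; HiC-Pro, Bowtie and hg19 (GRCh37) are named per the submitters' processing notes, with versions, and whether repeated molecules were collapsed, not given in the sources used here. Repeats of a product, if kept, would raise the count of its bin.

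Lines with equal bin starts were kept, and bins not listed counted 0. Library size was the total over the bins kept (9926 to 29282). Genotypes were compared with edgeR 4.0.16 in R 4.3.3 on 1 Mb blocks of at least 100 bins and on 5 kb bins of at least 10 counts, and with exact permutation tests for single values. Libraries were compared with chi-square tests and, over the bait bins, Fisher's exact test, added after the data were seen. Empty shares at equal depth are exact expectations under binomial thinning. The edgeR step was tested on simulated data, where it missed nearly all 2-fold and 4-fold changes of single bins and many 1.25-fold changes of blocks.

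The bins, the regions and the bound of 40 were chosen with earlier results of these data known. Named blocks are the 5 highest and 5 lowest, and blocks or bins with the 5 smallest p. Alternatives were TMM, DESeq2 1.42.0, a replicate block, other filters, caps and block sizes, and leaving out libraries, empty bins, outlier bins or bins near baits. Some comparisons, named where given, were added after the data were seen. These data cover chromosome 20, which does not carry TP63, and allow no test of the genotype labels.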

Additional observations from a re-analysis of the deposited data

How the results depend on the processing

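The low gene-dense counts, the lower long arm and the counts of 0 blocks and 0 bins called kept their direction or stayed at 0 under each alternative run. The lower long arm nearly vanished in one of these. With the long arm up to 60 Mb its mean log2 ratio to the short arm went from -0.072 to -0.014, and it was -0.00027 in wild-type replicate 1. Leaving out outlier bins or bins near baits could not change the gene-dense to gene-poor contrast, since neither region holds such bins. Without 1 library the log2 ratio of gene-dense to gene-poor ranged from -0.78 to -0.71 and that of the arms from -0.077 to -0.063. The difference in empty share ranged from 18.5 to 21.2 points between gene-dense and gene-poor and from 1.30 to 1.49 between the arms. The empty share of the arms turned from 1.37 to -0.52 percentage points with the long arm up to 60 Mb, since the gene-dense end was left out.

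The genotype differences were less stable. Without 1 library the difference in empty share between the genotypes ranged from -0.016 to 0.46 points for the arms and from -4.57 to 3.41 for gene-dense against gene-poor; the cause was not tested. It was 0.22 and -0.58 with all libraries. With a threshold of 20 there were 8 outlier bins. Log2 fold changes of named items that turned sign were 0.0053 with TMM for the bin at 23.96 Mb and those of 4 items when 1 library was left out. Without 1 library at a time they ranged from -1.29 to 0.50 at 13.30 Mb, from -0.77 to 0.70 at 23.96 Mb and from -0.82 to 0.33 at 24.46 Mb, turning positive without wild-type replicate 2 in all 3 bins and without p63-null replicate 2 at 23.96 Mb (0.20) and 24.46 Mb (0.019). The bin at 55.96 Mb ranged from -1.41 to -0.19. Block 34 to 35 Mb ranged from -0.33 to 0.024, positive without wild-type replicate 1. The cause was not tested.

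With a replicate block 0 blocks and 0 bins were called, as without it, and no other call changed. The differences between genotypes stayed at -0.091 for gene-dense to gene-poor, -0.023 for the arms and -0.64 points for the empty share at equal depth. Pairing cannot change a difference of group means, so these unchanged values say nothing about pairing. Deviations of same-numbered libraries correlated at -0.12 over 57 blocks, and a crossed replicate block, added after the data were seen, also called 0 blocks and 0 bins. Depth limits single bins, where the mean was 0.873 to 2.58 counts.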
